A study of Mus musculus with 10 samples.

Results

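The 6 mouse genes of the C/EBP family, Cebpa, Cebpb, Cebpd, Cebpe, Cebpg and Cebpz, were followed through their open chromatin in differentiated MAP adipocytes. A peak of the deposited count table was taken as a member when it overlapped the RefSeq bounds of one of these genes on GRCm38. A peak outside protein-coding genes was also a member when one of them was the nearest such gene within 50 kb. Members made up 34 of the 122984 peaks in the table: 17 at Cebpb, 12 at Cebpa, 2 at Cebpd and 1 each at Cebpe, Cebpg and Cebpz. Of these, 5 lay over a gene and 29 beside one, and all 34 had enough reads to be tested.

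C/EBP proteins are transcription factors that bind DNA as dimers through a basic region and a leucine zipper. In fat cell differentiation, C/EBPβ and C/EBPδ are early factors, induced by hormones that act through cAMP and glucocorticoids, and C/EBPα follows together with the nuclear receptor PPARγ and helps hold the mature adipocyte state. C/EBPε acts in granulocyte maturation, C/EBPγ lacks an activation domain and works through its dimer partners, and CEBPZ is a CCAAT-binding protein with a role in ribosome assembly that does not share the leucine zipper. Accessibility is not expression: a peak shows where DNA was open to the transposase, and the gene a distant peak acts on was not measured.

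MAP cells are an immortalized line of mouse adipocyte progenitors. All 5 groups had been differentiated in the same way, first with insulin, 1 µM rosiglitazone, 500 µM IBMX (a blocker of cAMP breakdown) and 1 µM dexamethasone (a glucocorticoid), then with insulin and rosiglitazone alone, so the controls had met a PPARγ agonist too. Treatment of the adipocytes began at day 7 to 8, with vehicle (control), with forskolin, which activates adenylyl cyclase and raises cAMP, for 4 hours (FSK4h), 1 day (FSK1D) or 3 days (FSK3D), or with rosiglitazone for 3 days (Rosi3D). The labels give no time for the control, and the same control served every treatment time. Length of treatment and time in culture thus cannot be told apart. Each group had 2 libraries, S1 and S2 for control, S3 and S4 for FSK4h, S5 and S6 for FSK1D, S7 and S8 for FSK3D, and S9 and S10 for Rosi3D. At the gene peaks of Cebpa, Cebpb, Cebpd and Cebpg the higher-numbered library of each group held the higher level in all 5 groups, as it did at none of the other 30 member peaks; the labels do not say what the numbers stand for. They also do not say whether the 2 came from separate cultures, so p-values measure the spread between these libraries, which may be technical.

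The promoters of the members whose start-site peak or summed accessibility differed in some comparison are printed here, because these are the members whose own peaks or sums passed a test. The RefSeq promoter table (GRCm38.p6) matched 3 of the 6 members by symbol, Cebpa, Cebpb and Cebpg; Cebpd, Cebpe and Cebpz were not matched. Each line gives the 250 bases before the annotated start, 5′ to 3′ on the strand of the gene. Capitals mark TGACG, the core of the cAMP response element, and the CCAAT box, on either strand. The Cebpb window (chr2:167688665-167688914, plus strand), the Cebpa window (chr7:35119043-35119292, plus strand) and the Cebpg window (chr7:35056567-35056816, minus strand) all lay inside the start-site peaks. The last line is the start window of the noncoding gene Gm35665 (chr7:35141515-35141764, minus strand), shown because it lies inside the Cebpa distal peak with the smallest adjusted p of all member peaks.
Cebpb: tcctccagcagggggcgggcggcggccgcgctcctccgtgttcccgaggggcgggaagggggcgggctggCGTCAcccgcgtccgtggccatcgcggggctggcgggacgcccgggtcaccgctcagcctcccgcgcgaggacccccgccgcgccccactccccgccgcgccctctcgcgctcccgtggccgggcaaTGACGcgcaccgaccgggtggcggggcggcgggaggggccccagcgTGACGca
Cebpa: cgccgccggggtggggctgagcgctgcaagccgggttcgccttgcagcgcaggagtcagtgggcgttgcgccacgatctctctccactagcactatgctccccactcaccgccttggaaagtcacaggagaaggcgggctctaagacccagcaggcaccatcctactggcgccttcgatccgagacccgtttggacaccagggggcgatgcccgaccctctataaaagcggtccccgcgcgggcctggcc
Cebpg: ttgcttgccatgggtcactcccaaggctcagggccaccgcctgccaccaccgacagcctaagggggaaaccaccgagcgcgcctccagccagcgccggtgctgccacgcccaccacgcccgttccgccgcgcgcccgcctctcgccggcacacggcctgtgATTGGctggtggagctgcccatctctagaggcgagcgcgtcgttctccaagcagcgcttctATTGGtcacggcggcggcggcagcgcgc
Gm35665: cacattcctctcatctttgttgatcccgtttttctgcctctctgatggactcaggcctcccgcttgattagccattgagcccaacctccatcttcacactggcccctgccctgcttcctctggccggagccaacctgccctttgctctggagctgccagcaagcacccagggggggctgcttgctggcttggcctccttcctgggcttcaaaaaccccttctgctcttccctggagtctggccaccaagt

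The Cebpb window held TGACG 3 times, from positions -53 and -7 on the strand of the gene and from -180 on the other strand, where -1 is the last base before the annotated start. A match to TGACG on either strand occurred in 17.8% of the 32851 windows of this length in the table, and a match to the full element TGACGTCA in 1.55%; the Cebpb window held no full element. The Cebpg window held CCAAT on the other strand, as ATTGG, from -89 and -28, a motif found in 33.8% of windows. GGTCA, a core of nuclear receptor elements found in 35.2% of windows, occurred once in the Cebpb window, from -136, and in the Cebpg window from -238 and -25, the latter overlapping a CCAAT box. The Cebpa and Gm35665 windows held none of the 8 patterns searched, which also took in TTGCGCAA (0.164% of windows), TTGCNNAA (9.56%), TTNCNNAA (36.8%) and TGACTCA (4.46%); a TTGCNNAA match is also a TTNCNNAA match, and TGACGTCA holds TGACG on both strands. These are matches of letters, not measured binding sites.

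Libraries held 10410233 to 18935287 counts in peaks, the fewest in control library S1. All 7 adipocyte marker genes had open chromatin at a gene end in every group. Their summed level there, in counts scaled to the effective library size (CPM), was 280 to 313 in control, 235 to 269 over the 3 forskolin groups and 365 to 366 with rosiglitazone. The markers did not all move alike. Over all peaks of each gene, 2 of the 7 were higher with rosiglitazone and 1 lower, at the adjusted p described below. Among all genes these shares were 1.99% and 4.7%. Of 6 progenitor markers, 4 had a gene-end peak, at 78.2 to 82.5 CPM in control, 73.5 to 90.1 with forskolin and 65.7 to 71.0 with rosiglitazone. Of 6 macrophage markers, Adgre1, Ptprc and Itgam had no gene-end peak. The other 3 summed to 22.1 to 22.3 CPM in control and 23.0 to 29.7 in the treated groups. Over all their peaks, distal ones included, 5 of the 6 summed to 46.0 to 52.0 CPM in control and 54.9 to 72.3 with treatment. For endothelial cells 2 of 5 and for muscle 1 of 4 markers had a gene-end peak, at no more than 11.5 and 3.23 CPM in any library. Over all their peaks the 5 endothelial markers summed to 125 to 133 CPM in control, 129 to 156 with forskolin, highest at 4 hours, and 117 to 123 with rosiglitazone. The 2 muscle markers with any peak summed to 23.2 to 25.1 CPM in control, 28.0 to 31.6 with forskolin and 24.2 to 26.0 with rosiglitazone, and Myod1 and Myf5 had no peak. The part of these marker shifts in the results was not tested, and in a bulk sample fewer nuclei with an open site and less accessibility per nucleus cannot be told apart.

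The comparison of each treatment with control asked where chromatin near these genes gained or lost accessibility. Around Cebpb, 3 distal peaks rose and stayed higher through 3 days of forskolin, while around Cebpa the downstream peaks at +22.4 and +24.9 kb fell most at 4 hours and partly returned, and that at +19.2 kb fell and stayed low. Of the 5 peaks over the genes themselves no more than 1 passed in any comparison with control. A peak was called when its edgeR quasi-likelihood p, adjusted by Benjamini-Hochberg across the 118954 peaks tested, was under 0.05, and changes are log2 fold changes with their standard error (SE).

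At 4 hours of forskolin 12 of the 34 member peaks were called (35.3%), beside 31.4% of all tested peaks. They were 6 higher, where the share over all peaks was 18.5%, and 6 lower, where it was 12.9%. At 1 day 9 were called (26.5%, all peaks 22.8%), 4 higher (all peaks 12.9%) and 5 lower (all peaks 9.84%). At 3 days 6 were called (17.6%, all peaks 13.8%), 4 higher (all peaks 8.49%) and 2 lower (all peaks 5.34%). With rosiglitazone 4 were called (11.8%, all peaks 6.57%), 1 higher (all peaks 3.22%) and 3 lower (all peaks 3.35%). The number of calls near these genes was thus close to the background under forskolin, and the difference between shares was not tested for any treatment. The direction differed by gene: at 4 hours 5 of the 6 called Cebpb peaks were higher, and 4 of the 5 called Cebpa peaks were lower. Both results rest on the same control libraries, as do all comparisons with control.

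**Figure D1:**
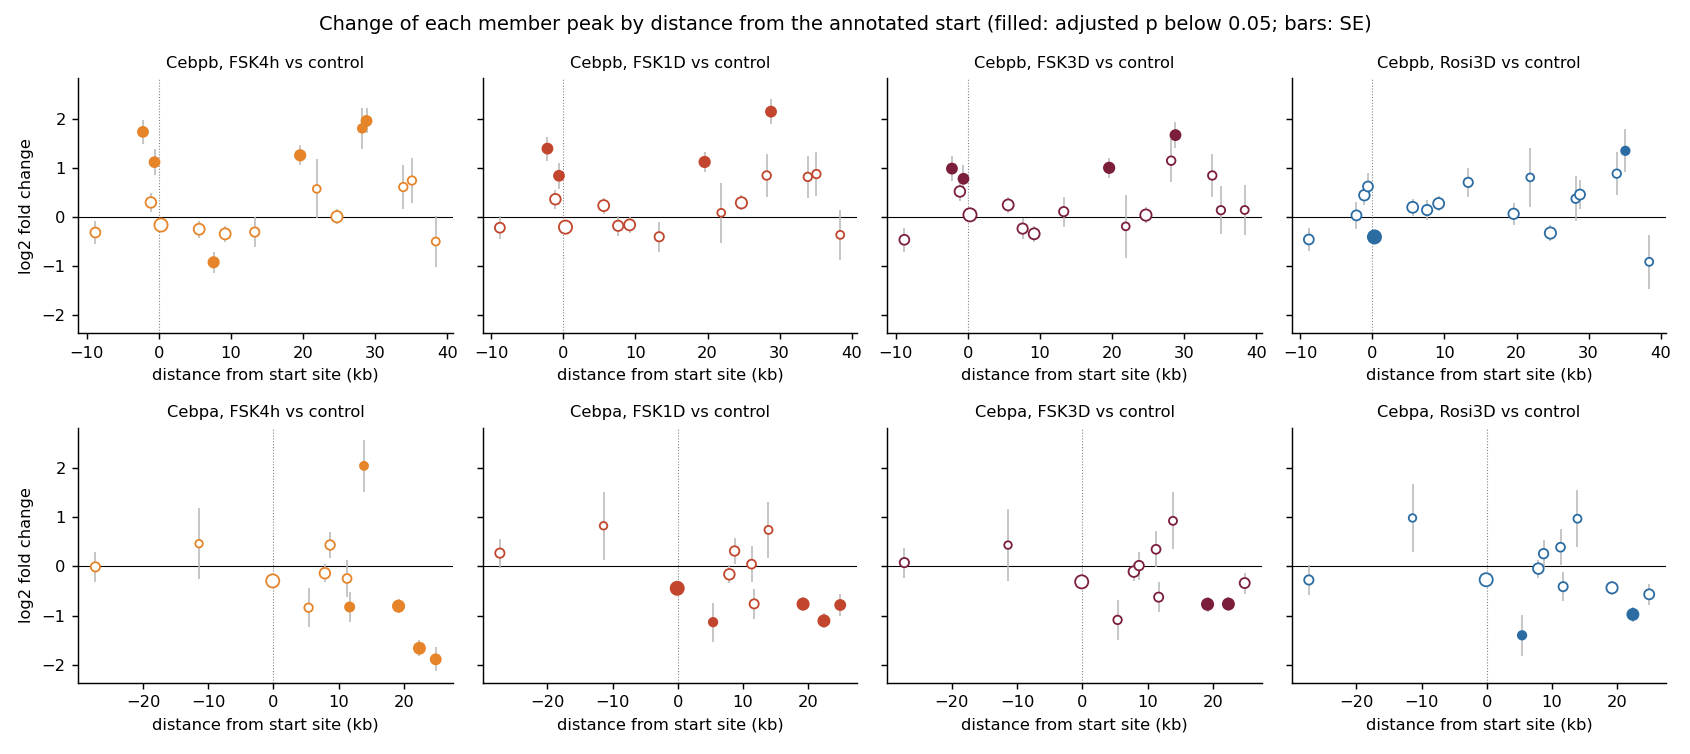
Log2 fold change against control (y axis) of each Cebpb peak (upper row) and Cebpa peak (lower row) by the distance of its centre from the annotated start in kb (x axis), for the 4 treatments. Filled points passed an adjusted p of 0.05, bars are SE and larger points have a higher mean level; the filled Cebpb points under forskolin are higher except at +7.6 kb, and the filled Cebpa points are lower except at +13.9 kb.

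Cebpb lies on chromosome 2 from 167688915 to 167690432, and peaks are named by the distance of their centre from its start. The +28.8 kb peak (chr2:167717453-167717949), between genes, had Gm38464 and not Cebpb as its nearest gene when all gene types were counted. It showed the largest change among the Cebpb peaks at each forskolin time. It held 1.92 and 2.56 CPM in the control libraries, 8.61 and 8.94 at 4 hours, 10.6 and 9.47 at 1 day, 6.96 and 7.44 at 3 days, but 3.51 and 2.72 with rosiglitazone. All 6 forskolin libraries lay above all control and rosiglitazone libraries. The changes were 1.95 (SE 0.25, adjusted p = 2.97e-09) at 4 hours, 2.14 (SE 0.25, adjusted p = 2.68e-10) at 1 day and 1.66 (SE 0.26, adjusted p = 1.95e-06) at 3 days. Rosiglitazone gave 0.45 (SE 0.29, adjusted p = 0.391).

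The -2.2 kb peak (chr2:167686547-167686792), upstream of the promoter, was open most at 4 hours. Its levels were 2.32 and 3.72 CPM in control, 10.8 and 9.54 at 4 hours, 7.88 and 8.20 at 1 day, 5.90 and 6.25 at 3 days, and 3.30 and 2.96 with rosiglitazone. Forskolin libraries again lay above every control and rosiglitazone library, with the 3-day libraries lowest among them. The change was 1.73 (SE 0.24, adjusted p = 1.97e-08) at 4 hours, 1.39 (SE 0.24, adjusted p = 9.79e-06) at 1 day and 0.98 (SE 0.26, adjusted p = 0.00454) at 3 days. Between 3 days and 4 hours it fell by 0.75 (SE 0.21, adjusted p = 0.0106). The 3-day call against control was lost without control library S1 (0.70, adjusted p = 0.123). The fall from 4 hours was lost without S3 (adjusted p = 0.146), without S7 (adjusted p = 0.0750) and with DESeq2 (adjusted p = 0.0580).

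The +19.6 kb peak (chr2:167708296-167708738), nearest to the noncoding gene A530013C23Rik when all gene types were counted, rose to a level that it kept. It held 4.24 and 5.37 CPM in control, 11.0 and 12.1 at 4 hours, 10.6 and 10.4 at 1 day, 10.0 and 9.26 at 3 days, and 5.09 and 5.00 with rosiglitazone. The rosiglitazone libraries lay between those of control, and every forskolin library was higher. The changes with forskolin were 1.25 (SE 0.20, adjusted p = 1.02e-06), 1.12 (SE 0.20, adjusted p = 2.16e-05) and 1.00 (SE 0.21, adjusted p = 0.000355) in order of time. The differences between the forskolin times did not pass, with 95% intervals, from the SE, of -0.48 to 0.21 for 1 day against 4 hours and -0.61 to 0.10 for 3 days against 4 hours.

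The -0.6 kb peak (chr2:167688243-167688393) is a narrow peak just upstream of the start-site peak. It rose from 3.74 and 3.22 CPM in control to 8.74 and 6.28 at 4 hours (1.11, SE 0.27, adjusted p = 0.000684). At 1 day the libraries were far apart, at 4.14 and 8.15 CPM (0.83, SE 0.27, adjusted p = 0.0162), and without S6 the change was 0.26 (adjusted p = 0.661); the call was also lost without S2 (0.72, adjusted p = 0.160) and with DESeq2 (adjusted p = 0.101). At 3 days (0.77, SE 0.27, adjusted p = 0.0459) the call was lost under 8 of 10 alternatives, among them leaving out S1, S2, S7 or S8. With rosiglitazone both libraries, at 4.40 and 6.17 CPM, lay above control, a change that was not called (0.62, SE 0.28, adjusted p = 0.179). The -1.1 kb peak between it and the -2.2 kb peak (chr2:167687666-167687927) was at 7.87 and 7.27 CPM in control and at 8.33 to 13.5 in the treated libraries. No comparison called it, the nearest being 3 days of forskolin (0.51, SE 0.20, adjusted p = 0.0736).

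The +7.6 kb peak (chr2:167696263-167696673), inside the noncoding gene A530013C23Rik that starts downstream of Cebpb, went the other way, and for a short time. Its level was 6.86 and 10.7 CPM in control, 4.27 and 5.01 at 4 hours, 8.21 and 7.38 at 1 day, 7.67 and 7.28 at 3 days, and 10.7 and 8.77 with rosiglitazone. Only the 4-hour libraries lay below both controls, which themselves were far apart. The change at 4 hours was -0.93 (SE 0.22, adjusted p = 0.000562), and without control library S2 it was -0.56 (adjusted p = 0.145). The level at 1 day was higher than at 4 hours (0.74, SE 0.21, adjusted p = 0.0202), as was that at 3 days (0.69, SE 0.22, adjusted p = 0.0255). Each of these calls was lost with DESeq2 (adjusted p = 0.136 and 0.116) and when any 1 library of the groups compared was left out (adjusted p = 0.0567 to 0.226).

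**Figure D2:**
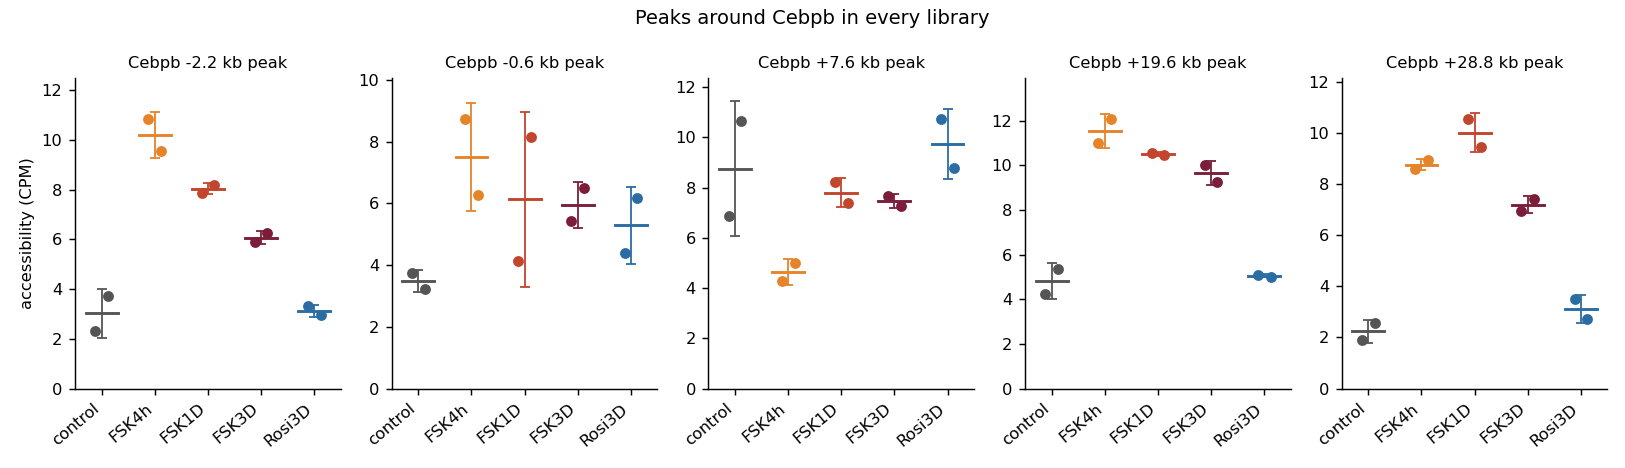
Accessibility in CPM (y axis) of 5 Cebpb peaks in the 2 libraries of each group (points), with the group mean (horizontal line) and SD (bars). At -2.2, +19.6 and +28.8 kb all 6 forskolin libraries are above all control and rosiglitazone libraries, while at +7.6 kb the 4-hour libraries, at 4.27 and 5.01 CPM, are the lowest.

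The start-site peak of Cebpb (chr2:167688486-167689949), which covers the start and most of this short gene, did not follow its distal peaks under forskolin. Its level was 71.7 and 89.8 CPM in control, 68.7 and 75.1 at 4 hours, 62.7 and 76.9 at 1 day, 76.4 and 90.0 at 3 days, and 53.5 and 68.0 with rosiglitazone. Every forskolin group overlapped control, and the changes were -0.17, -0.21 and 0.04 (SE 0.12 each, adjusted p = 0.308, 0.223 and 0.879). These values are from the main scaling (TMM), and their sign under other scalings is not given here. At the Cebpd gene peak, described below, the sign at 4 hours and 1 day depended on the scaling. With rosiglitazone both libraries lay below control (-0.41, SE 0.12, adjusted p = 0.0299). That call was lost without S2 (-0.24, adjusted p = 0.472), without S9 (-0.26, adjusted p = 0.459), with offsets that follow the mean level, called trended offsets here (-0.25, adjusted p = 0.0724), and with DESeq2 (adjusted p = 0.0964). Among all gene-end peaks 28.7% were called at 4 hours, 23.2% as lower and 5.48% as higher. Of the 7 member peaks at a gene end 2 were called at 4 hours (28.6%), the Cebpg peak as lower and the -0.6 kb peak of Cebpb as higher.

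The count of a distal peak was also taken as a percentage of the count of the start-site peak in the same library. This measure needs no scaling between libraries, but it moves with the start-site peak, which was lower with rosiglitazone (-0.41). For the -2.2 kb peak this was 3.24% and 4.14% in control, 15.8% and 12.7% at 4 hours, 12.6% and 10.7% at 1 day, 7.72% and 6.95% at 3 days, and 6.18% and 4.36% with rosiglitazone. For the +28.8 kb peak it was 2.68% and 2.85% in control, 12.5% and 11.9% at 4 hours, 16.8% and 12.3% at 1 day, 9.11% and 8.27% at 3 days, and 6.56% and 3.99% with rosiglitazone. For the +19.6 kb peak it was 5.92% and 5.98% in control, 10.3% to 16.8% with forskolin, and 9.52% and 7.35% with rosiglitazone. Here the rosiglitazone libraries were above control, while in CPM they lay between the control libraries. For these peaks the forskolin libraries stood above all the others on this measure too. For the -0.6 kb peak they did not: it was at 8.24% and 9.07% with rosiglitazone, above both libraries at 3 days of forskolin (7.10% and 7.21%) and 1 of those at 1 day (6.60% and 10.6%). In CPM the rosiglitazone libraries of this peak, at 4.40 and 6.17, overlapped those at 3 days of forskolin, at 5.43 and 6.49.

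Of the other 10 Cebpb peaks, 4 were called in some comparison; they fall outside the rule for naming peaks and were picked after their values were seen. The +28.2 kb peak, next to that at +28.8 kb, rose at 4 hours from 0.808 and 1.24 to 4.21 and 3.08 CPM (1.80, SE 0.41, adjusted p = 0.000398). The +35.1 kb peak was higher with rosiglitazone, at 2.68 and 2.90 against 1.31 and 0.908 CPM in control (1.34, SE 0.44, adjusted p = 0.0457), a call lost under 6 of 10 alternatives, among them leaving out S1, S2, S9 or S10. These 2 peaks had 8 to 64 counts in a library. The +9.2 kb and +5.6 kb peaks differed only between treatments or times. The remaining 6 peaks were not called in any comparison.

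Cebpa lies on chromosome 7 from 35119293 to 35121928. Its downstream side, from +11.3 to +24.9 kb, overlaps or adjoins the noncoding genes Gm35724, Gm51475 and Gm35665. The +22.4 kb peak (chr7:35141359-35141981), over the start of Gm35665, was the member peak with the smallest adjusted p. It held 21.5 and 27.2 CPM in control, 6.97 and 8.39 at 4 hours, 10.7 and 12.0 at 1 day, 15.0 and 13.6 at 3 days, and 12.7 and 12.1 with rosiglitazone. All 8 treated libraries lay below both controls, the 4-hour ones lowest. The changes were -1.67 (SE 0.16, adjusted p = 8.00e-14) at 4 hours, -1.11 (SE 0.15, adjusted p = 2.63e-08) at 1 day, -0.77 (SE 0.15, adjusted p = 0.000128) at 3 days and -0.98 (SE 0.15, adjusted p = 4.15e-06) with rosiglitazone. The sequence of this peak shown above held none of the motifs searched.

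From 4 hours of forskolin the +22.4 kb peak recovered in part. It was higher at 3 days than at 4 hours by 0.90 (SE 0.16, adjusted p = 4.86e-05). The step from 4 hours to 1 day (0.56, SE 0.16, adjusted p = 0.0269) was lost with DESeq2 (adjusted p = 0.163) and without any 1 of S3, S4, S5 or S6 (adjusted p = 0.0538 to 0.315). Between 3 days of forskolin and 3 days of rosiglitazone the difference was 0.21, with an interval of -0.09 to 0.52.

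The +24.9 kb peak (chr7:35143929-35144551) fell further and recovered more. Its level was 8.78 and 9.66 CPM in control, 2.37 and 2.60 at 4 hours, 5.48 and 5.25 at 1 day, 6.84 and 7.83 at 3 days, and 6.81 and 5.68 with rosiglitazone. In CPM the groups did not overlap between control and any treatment, nor between the 3 forskolin times. As a percentage of the Cebpa start-site count, control (11.3% and 10.6%) and 3 days of forskolin (10.5% and 10.9%) did overlap. On that measure the 4-hour libraries were at 3.62% and 3.57%. The percentage also depends on the start-site peak, which was lower in every treated library than in control. The change was -1.89 (SE 0.24, adjusted p = 1.70e-09) at 4 hours and -0.79 (SE 0.21, adjusted p = 0.00449) at 1 day; the second was lost without S2 (adjusted p = 0.0707). At 3 days it was -0.34 (SE 0.21, adjusted p = 0.310), and with rosiglitazone -0.57 (SE 0.22, adjusted p = 0.0995). Relative to 4 hours it was higher by 1.11 at 1 day (SE 0.24, adjusted p = 0.00188, and 0.0516 without S3) and by 1.55 at 3 days (SE 0.24, adjusted p = 2.41e-06).

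The +19.2 kb peak (chr7:35138070-35138981), inside Gm35724 and Gm35665, fell and stayed low. Control libraries held 20.6 and 24.7 CPM, those at 4 hours 11.8 and 14.1, at 1 day 13.5 and 13.2, at 3 days 14.8 and 11.6, and with rosiglitazone 16.1 and 17.5. All treated libraries were below control, and those of rosiglitazone were above those of forskolin. The forskolin changes were -0.81 (SE 0.15, adjusted p = 1.28e-05), -0.77 (SE 0.15, adjusted p = 4.92e-05) and -0.77 (SE 0.15, adjusted p = 0.000113) in order of time. The rosiglitazone change was -0.44 (SE 0.15, adjusted p = 0.0554), and the difference between the drugs at 3 days, -0.33, had an interval of -0.63 to -0.04 (adjusted p = 0.0997).

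Weaker peaks around Cebpa moved in both directions. The +11.7 kb peak (chr7:35130816-35131148) held 4.14 and 4.96 CPM in control and 2.17 and 2.96 at 4 hours (-0.83, SE 0.31, adjusted p = 0.0334), a call lost without S2 (adjusted p = 0.221), without S3 (adjusted p = 0.245), with DESeq2 (adjusted p = 0.0918) and with library size alone (adjusted p = 0.0726). The next peaks are outside the naming rule and were picked after their values were seen. The +13.9 kb peak, at 0.808 and 0.413 CPM in control (8 and 5 counts), rose to 2.63 and 2.35 at 4 hours (2.05, SE 0.53, adjusted p = 0.00183), and without S2 the adjusted p was 0.0657. The +5.4 kb peak, the nearest downstream, was lower at 1 day (-1.13, SE 0.40, adjusted p = 0.0289) and with rosiglitazone (-1.40, SE 0.42, adjusted p = 0.0259). Its control libraries S1 and S2, at 2.22 and 4.13 CPM, were far apart, and without S2 the 2 changes were -0.60 (adjusted p = 0.504) and -0.87 (adjusted p = 0.434). The first was also lost without S5 or S6, with DESeq2 and with library size alone, and the second without S10 and with DESeq2. The 5 other distal Cebpa peaks were not called in any comparison.

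**Figure D3:**
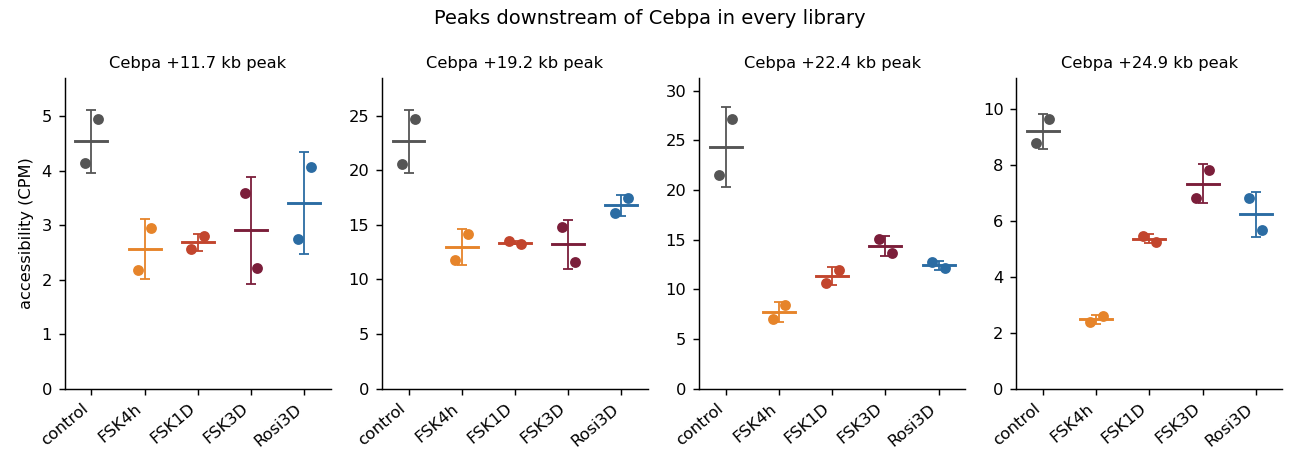
Accessibility in CPM (y axis) of 4 peaks downstream of Cebpa in the 2 libraries of each group (points), with the group mean (horizontal line) and SD (bars). At +22.4 and +24.9 kb the 4-hour libraries are lowest, between 2.37 and 8.39 CPM, and the later forskolin libraries lie between them and control.

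The start-site peak of Cebpa (chr7:35118317-35120109) was lower in every treated library than in control, by a small step. It held 78.0 and 91.3 CPM in control, 65.4 and 72.8 at 4 hours, 56.6 and 67.9 at 1 day, 64.9 and 71.7 at 3 days, and 65.3 and 75.2 with rosiglitazone. Only 1 day passed the test (-0.45, SE 0.12, adjusted p = 0.00366). The change at 4 hours was -0.29 (SE 0.12, adjusted p = 0.05005, just above the threshold), at 3 days -0.31 (SE 0.12, adjusted p = 0.0665) and with rosiglitazone -0.27 (SE 0.12, adjusted p = 0.170). The 1-day call was lost without S2 (-0.33, adjusted p = 0.153) and without S5 (-0.32, adjusted p = 0.166). With trended offsets the change was -0.09 (adjusted p = 0.495).

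Cebpd, on chromosome 16 from 15887286 to 15889545, had 1 strong peak over the gene (chr16:15886702-15888171) and 1 weak peak 9867 bases away. The gene peak was at 68.1 and 76.5 CPM in control, 66.0 and 72.3 at 4 hours, 59.6 and 72.1 at 1 day, 69.2 and 79.4 at 3 days, and 59.0 and 64.3 with rosiglitazone. Only the rosiglitazone libraries lay below both controls. No comparison called it: the changes against control were -0.07, -0.14 and 0.04 for forskolin and -0.23 for rosiglitazone (SE 0.12 each, adjusted p from 0.263 to 0.883). With trended offsets the forskolin values were 0.20, 0.21 and 0.24, so the sign at 4 hours and 1 day depended on the scaling, and the 3-day change then passed (adjusted p = 0.0426). Between forskolin and rosiglitazone at 3 days the difference was 0.27 (SE 0.12, adjusted p = 0.0979), and it passed with trended offsets (0.31, adjusted p = 0.00338) and with library size alone (0.26, adjusted p = 0.0417). The weak peak, at 1.18 to 3.51 CPM, was not called in any comparison.

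Cebpg (chromosome 7, 35046422 to 35056566), the dimer partner without an activation domain, had only its start-site peak (chr7:35055746-35056928), which also overlaps the gene model Gm45095. It held 48.5 and 56.4 CPM in control, 39.4 and 41.3 at 4 hours, 39.2 and 44.8 at 1 day, 36.9 and 50.2 at 3 days, and 41.2 and 47.0 with rosiglitazone. The 4-hour, 1-day and rosiglitazone libraries were below both controls, and the 3-day libraries straddled S1. The 4-hour change was -0.38 (SE 0.13, adjusted p = 0.0160), and the others, from -0.32 to -0.25, did not pass (adjusted p = 0.0533, 0.141 and 0.247). The 4-hour call was lost without S2 (-0.26, adjusted p = 0.255), without S3 (adjusted p = 0.134), without S4 (adjusted p = 0.0591) and with trended offsets (-0.19, adjusted p = 0.140).

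The Cebpz peak (chr17:78936792-78937433) lies over the start of Cebpz and also overlaps Ndufaf7, a gene for assembly of mitochondrial complex I. It was at 22.4 and 24.8 CPM in control, 19.6 to 24.3 with forskolin, and 27.1 and 25.8 with rosiglitazone, the only group with both libraries above control. No comparison called it (changes of -0.04, -0.22, -0.06 and 0.16, SE 0.13 each). The single Cebpe peak (chr14:54714076-54714560), 1902 bases outside the gene, was weak, at 1.38 to 3.09 CPM with 21 to 52 counts per library. It was not called in any comparison, and its intervals were wide, from -1.19 to 0.29 at 4 hours and from -1.54 to -0.01 with rosiglitazone (adjusted p = 0.243), so small changes were not detectable at this depth. No peak lay over the Cebpe gene itself.

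**Figure D4:**
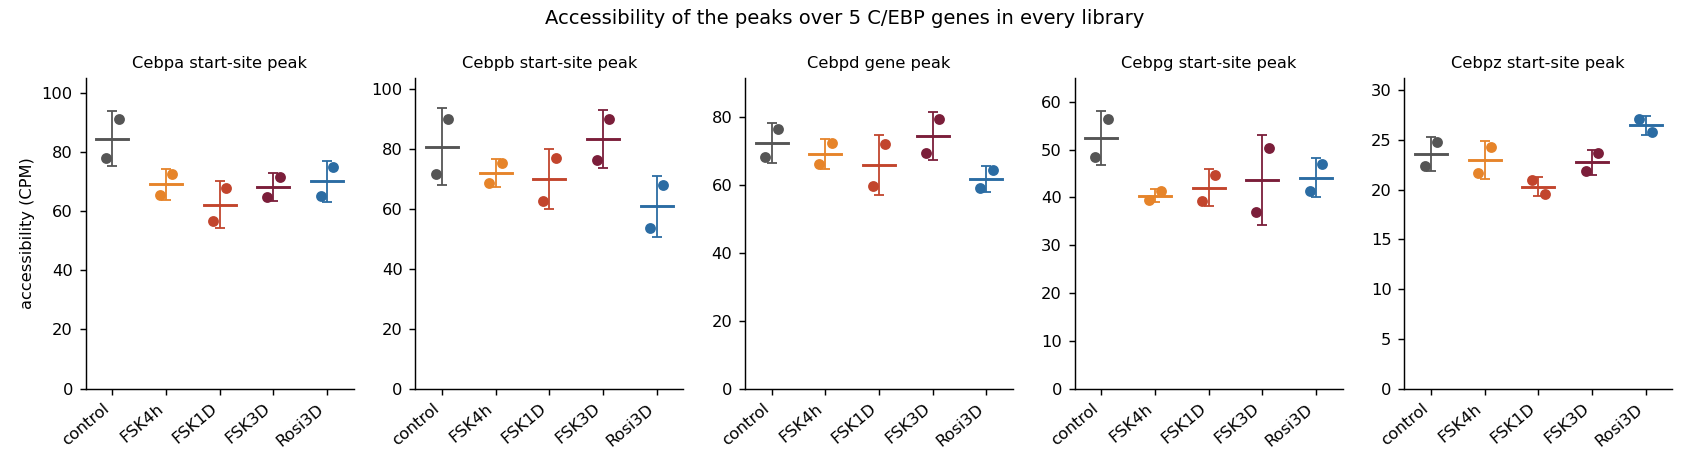
Accessibility in CPM (y axis, from 0) of the peaks over 5 C/EBP genes in the 2 libraries of each group (points), with the group mean (horizontal line) and SD (bars). With rosiglitazone the Cebpz libraries lie above control and those of Cebpa, Cebpb, Cebpd and Cebpg below. Of these changes only that of Cebpb was called. All treated Cebpa libraries, from 56.6 to 75.2 CPM, lie below the control libraries at 78.0 and 91.3 CPM.

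Per kb of peak, the levels of the gene peaks in control were 55.1 ± 8.74 CPM (SD of 2 libraries) for Cebpb, 49.2 ± 4.01 for Cebpd, 47.2 ± 5.25 for Cebpa, 44.3 ± 4.75 for Cebpg and 36.7 ± 2.61 for Cebpz. Each of these overlapped its neighbour in the order except Cebpg and Cebpz, whose libraries did not overlap. The Cebpe peak, at 6.02 ± 0.321, stood apart from all of them. At each of the 3 forskolin times Cebpb was again highest in mean and Cebpd next. With rosiglitazone Cebpd, Cebpb and Cebpz were all between 41.2 and 42.0 in mean, and their libraries overlapped.

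Counts summed over all peaks of a gene were tested in the same way for 17461 genes. Over all genes the median change against control was -0.13 at 4 hours, -0.15 at 1 day, -0.11 at 3 days and -0.06 with rosiglitazone, so values below are to be read against these. With trended offsets the medians were -0.02, -0.01, -0.01 and 0.00, and with library size alone -0.03, 0.00, -0.01 and 0.04. Cebpa was called in all 4 comparisons, Cebpg in 2 and no other member in any. The shares of all genes called in the same order were 35.1%, 39.3%, 15.1% and 6.68%, of which lower 24%, 30.8%, 10.4% and 4.7%, and higher 11.1%, 8.58%, 4.68% and 1.99%. This lean towards lower sums depended on the scaling: of the called sums 31.6%, 21.8%, 31.0% and 29.7% were higher, but with trended offsets 58.2%, 56.7%, 68.9% and 51.6%, and with library size alone 53.3%, 55.2%, 66.1% and 70.7%.

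The Cebpa sum was 154 and 185 CPM in control, 114 and 125 at 4 hours, 113 and 124 at 1 day, 128 and 130 at 3 days, and 126 and 139 with rosiglitazone. All treated libraries were below control. Its change at 4 hours, -0.51 (SE 0.08, adjusted p = 0.000161), was lost with gene-end peaks only (-0.29, adjusted p = 0.0779). Its later changes were -0.51 at 1 day (SE 0.08, adjusted p = 0.000180), kept under all 14 alternatives, -0.39 at 3 days (SE 0.08, adjusted p = 0.00528) and -0.35 with rosiglitazone (SE 0.08, adjusted p = 0.0147). The 3-day call was lost without S2 (-0.25, adjusted p = 0.152), with only the 2 groups in the fit, with peaks within 10 kb and with gene-end peaks only. The rosiglitazone call was lost without S2 (-0.21, adjusted p = 0.310), without S9 (adjusted p = 0.233), with gene-end peaks only, with peaks within 10 kb and when all gene types competed for a peak.

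The Cebpb sum was 156 and 179 CPM in control, 174 and 182 at 4 hours, 174 and 193 at 1 day, 180 and 195 at 3 days, and 145 and 172 with rosiglitazone. The forskolin changes, 0.08, 0.13 and 0.16 (SE 0.08 each), did not pass (adjusted p = 0.432, 0.213 and 0.176). The start-site peak, whose level did not pass either, held the largest part of the sum, and the risen distal peaks added to it. With trended offsets the sums passed, at 0.19, 0.29 and 0.27 (adjusted p = 0.0261, 0.00109 and 0.00522). Scaling by library size alone let them pass too (adjusted p = 0.0365, 0.00169 and 0.00921), as did counting peaks up to 100 kb away (adjusted p = 0.0234, 0.00251 and 0.0152). The Cebpg sum, its 1 peak, was lower at 4 hours (-0.38, adjusted p = 0.0236) and 1 day (-0.32, adjusted p = 0.0438). The first was lost with trended offsets and without S2, S3 or S4, and the second under 6 of 14 alternatives, among them leaving out S2, S5 or S6. Its 3-day change, -0.28 (adjusted p = 0.129), passed without S8 (-0.51, adjusted p = 0.00131). Cebpd, Cebpe and Cebpz did not pass in any comparison, but the Cebpd difference between forskolin and rosiglitazone at 3 days (0.23, adjusted p = 0.133) passed with trended offsets (0.27, adjusted p = 0.0175) and without S7 (0.34, adjusted p = 0.0196).

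**Figure D5:**
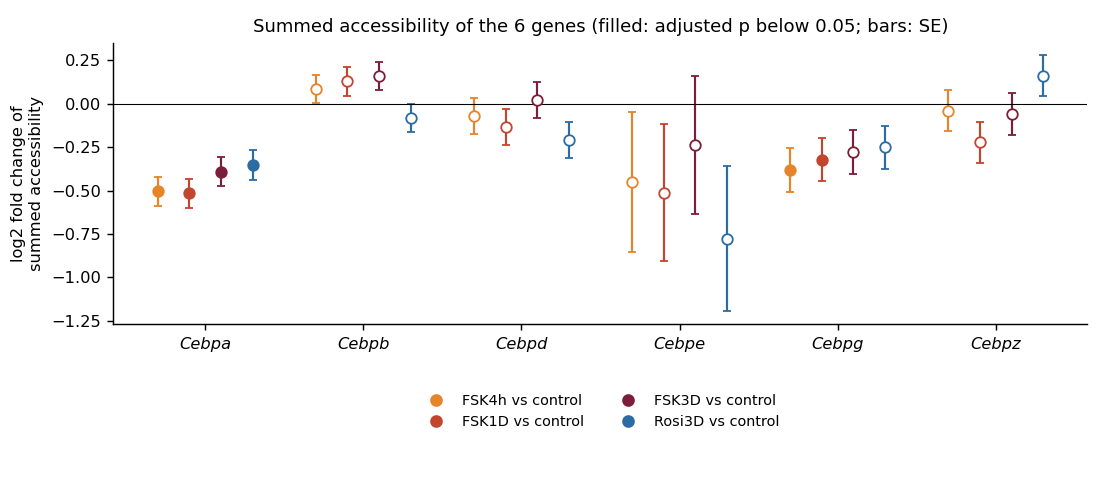
Log2 fold change against control of accessibility summed over all peaks of each C/EBP gene (y axis) for the 4 treatments, with SE as bars and filled points for an adjusted p below 0.05. Cebpa is below 0 in all 4 comparisons, from -0.51 to -0.35, and the wide bars of Cebpe come from its single weak peak.

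The comparison of forskolin with rosiglitazone at 3 days asked how the 2 agents differ. Of the member peaks 6 were called (17.6%, all peaks 21.7%), 4 higher with forskolin (all peaks 12.9%) and 2 lower (all peaks 8.82%), and all 6 belonged to Cebpb. The peaks at +28.8 kb (1.21, SE 0.23, adjusted p = 4.37e-05), -2.2 kb (0.95, SE 0.24, adjusted p = 0.00189) and +19.6 kb (0.94, SE 0.20, adjusted p = 0.000184) were higher with forskolin, under every alternative run. The Cebpb start-site peak was higher too (0.45, SE 0.12, adjusted p = 0.00460), a call lost without S9 (0.32, adjusted p = 0.180). Lower with forskolin were the +9.2 kb peak (-0.62, SE 0.16, adjusted p = 0.00260), at 9.79 and 11.5 against 13.9 and 18.5 CPM, and the +35.1 kb peak (-1.21, SE 0.41, adjusted p = 0.0242), at 0.885 and 1.58 against 2.68 and 2.90 CPM. The first was lost without S7 (adjusted p = 0.0699) and without S10 (-0.39, adjusted p = 0.194), and the second without S7 (-0.82, adjusted p = 0.286), S9 or S10 and with DESeq2. None of the 12 Cebpa peaks was called by edgeR, nor with any of the 3 other scalings, 1 had an unadjusted p below 0.05, and the difference of the Cebpa sum, -0.04, had an interval of -0.20 to 0.13. The Cebpb sum was higher with forskolin (0.24, SE 0.08, adjusted p = 0.0473, where 15.4% of all genes were called, 7.63% higher and 7.73% lower), and this was lost under 7 of 14 alternatives, among them leaving out S8 or S9.

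Between the forskolin times the member peaks that changed did so after 4 hours. From 4 hours to 1 day 3 were called (8.82%, all peaks 5.57%), all higher (all peaks 2.58% higher and 2.99% lower). From 4 hours to 3 days 5 were called (14.7%, all peaks 11.1%), 4 higher (all peaks 4.38%) and 1 lower (all peaks 6.75%), the latter the -2.2 kb peak of Cebpb. The risers were the +22.4 and +24.9 kb peaks of Cebpa and the +7.6 kb peak of Cebpb in both, joined at 3 days by the +5.6 kb peak of Cebpb, outside the naming rule. That peak, also inside A530013C23Rik, went from 9.07 and 10.4 to 14.6 and 12.8 CPM (0.49, SE 0.16, adjusted p = 0.0354), a call lost without S3, S4 or S7 and with DESeq2. From 1 day to 3 days no member peak was called by edgeR or DESeq2, with 4 at an unadjusted p below 0.05, and 0.187% of all peaks were.

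The accessibility of other genes of these pathways is described by lists taken from general knowledge of C/EBP biology, with the shares of all genes called given above as their background and sums over all peaks of a gene. The lists were chosen with earlier results of these data known, so their counts are a description and not a test. The first list held 22 partners and modulators of C/EBP proteins. At 4 hours 3 rose and 7 fell (median change -0.13, all genes -0.13), at 1 day 0 rose and 9 fell (-0.17, all genes -0.15), at 3 days 0 rose and 5 fell (-0.14, all genes -0.11), and with rosiglitazone 1 rose and 2 fell (-0.15, all genes -0.06). The medians were close to those of all genes except with rosiglitazone. Ddit3, which encodes CHOP, a C/EBP relative that blocks the others as a dimer partner, fell from 173 ± 11.0 CPM in control to 121 ± 0.272 at 4 hours (-0.52, SE 0.08, adjusted p = 0.000100). It fell by as much at 1 day (-0.51, adjusted p = 0.000157). Atf4, a stress factor that can pair with C/EBP proteins, and Atf2, a factor that binds cAMP response elements, fell at 1 day, by 0.42 (SE 0.08, adjusted p = 0.000665) and 0.61 (SE 0.11, adjusted p = 0.000402). Stat5a, a factor of hormone and cytokine signals that also acts in adipogenesis, fell at 1 day (-0.46, SE 0.09, adjusted p = 0.000712).

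Of 20 adipocyte genes known for C/EBP sites in their promoters, 4 rose and 8 fell at 4 hours (median -0.08), 2 rose and 11 fell at 1 day (-0.28), 3 rose and 5 fell at 3 days (-0.14), and 5 rose and 3 fell with rosiglitazone (-0.05). Fabp4, the fatty acid binding protein of adipocytes, went from 142 ± 0.861 CPM in control to 323 ± 2.49 with rosiglitazone (1.19, SE 0.06, adjusted p = 1.09e-10). At 3 days of forskolin it was at 145 ± 5.89 (0.03, adjusted p = 0.793). Its rise at 4 hours (0.27, adjusted p = 0.00270) turned to -0.11 with gene-end peaks only and was lost without S4 (adjusted p = 0.0582). Cd36, a fatty acid transporter, rose with rosiglitazone (0.93, SE 0.09, adjusted p = 4.82e-06) and was at -0.20 with 3 days of forskolin (adjusted p = 0.138), and it was lower with forskolin than with rosiglitazone (-1.13, SE 0.09, adjusted p = 8.39e-08). Cfd, which encodes adipsin, fell at 4 hours (-0.82, SE 0.12, adjusted p = 2.63e-05), at 1 day (-0.48, adjusted p = 0.00259, lost without S5) and with rosiglitazone (-0.81, SE 0.12, adjusted p = 0.000379). Ppargc1a, a thermogenic coactivator gene, rose in all 4 comparisons, by 0.32 to 0.40 (adjusted p = 5.19e-05 to 0.00231). None of these passed when the sum was limited to gene-end peaks, and 3 of the 4 then had the opposite sign, from -0.30 to -0.07; the 3-day change was also lost with only the 2 groups in the fit (adjusted p = 0.0712).

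Of 15 acute-phase and inflammatory genes with C/EBP sites, 4 rose and 1 fell at 4 hours (median 0.05), 5 rose at 1 day (0.24) and 5 at 3 days (0.24) with none lower, and 1 rose and 2 fell with rosiglitazone (-0.05). Between the drugs at 3 days 6 were higher with forskolin and none lower (median 0.26, all genes -0.05). Lcn2, the iron-binding acute-phase protein lipocalin 2, rose from 2.37 ± 0.0780 CPM in control to 4.60 ± 0.836 at 4 hours, 6.34 ± 0.0395 at 1 day and 8.10 ± 0.718 at 3 days. The changes were 0.96 (SE 0.27, adjusted p = 0.00934, lost without S2 or S4), 1.42 (SE 0.25, adjusted p = 0.000385) and 1.78 (SE 0.25, adjusted p = 0.000165). It rose with rosiglitazone too, to 5.28 ± 0.653 CPM (1.16, SE 0.26, adjusted p = 0.0113), a call lost when S1, S2, S9 or S10 was left out. The difference between the drugs at 3 days (0.62, SE 0.21, adjusted p = 0.0489) was lost under 7 of 14 alternatives, among them leaving out S7, S9 or S10. Hp, the acute-phase protein haptoglobin, fell with rosiglitazone (-0.73, SE 0.11, adjusted p = 0.000459) and at 4 hours (-0.51, SE 0.11, adjusted p = 0.00134). At 3 days of forskolin it was higher than in control (0.32, SE 0.10, adjusted p = 0.0396), a call lost under 8 of 14 alternatives, among them leaving out S1, S2 or S8. At 3 days it was higher with forskolin than with rosiglitazone by 1.06 (SE 0.11, adjusted p = 1.31e-06), at 59.9 ± 7.33 against 28.7 ± 1.74 CPM. Ptgs2, an inducible prostaglandin synthase, rose at 4 hours (0.74, SE 0.09, adjusted p = 5.29e-06) and 1 day (0.45, SE 0.09, adjusted p = 0.000977), and was at 0.12 (adjusted p = 0.381) at 3 days. Cxcl1, a chemokine, rose at 4 hours (0.32, SE 0.07, adjusted p = 0.00139). Limited to gene-end peaks, that change was 0.09 (adjusted p = 0.562).

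Of 9 granulocyte genes that C/EBPε controls in myeloid cells, 6 had enough counts. Of these, Prtn3, a serine protease gene, fell at 4 hours (-0.59, SE 0.10, adjusted p = 0.000233) and with rosiglitazone (-0.46, SE 0.10, adjusted p = 0.00925, lost without S2 or S9). Camp, the cathelicidin gene, rose at 1 day (0.40, SE 0.11, adjusted p = 0.00597, lost without S1) and at 3 days (0.33, adjusted p = 0.0446), the latter lost under 8 of 14 alternatives, among them leaving out S1 or S7. No other gene of this list passed against control.

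As a description of likeness, Pearson's r of log2 CPM over the 10 libraries was computed between each of 3 members and 8467 well covered genes; all values come from the same libraries and share their depth. The genes most like Cebpa were Cdc42ep1 (r = 0.969), Prcd (0.963) and Epc1 (0.960). Those most like Cebpb were Lrig2 (0.901), Cog6 (0.895) and Alas1 (0.895), and those most like Cebpd were Mrfap1 (0.954), Azin1 (0.946) and Skil (0.944). None of them shares a peak with a C/EBP gene.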

How the data were processed

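ATAC-seq, which marks open DNA with a transposase, was run on 10000 nuclei per library with 12 cycles of PCR, per the labels' protocols. The deposited table holds raw counts per peak for 10 libraries and the width of each peak. The submitters' processing notes list Bowtie2, fastp, MACS2, Picard, SAMtools, deepTools and featureCounts, with the builds GRCm38 and mm10; settings are not given in the sources used here. Column names give the group of a library and a running number from S1 to S10, not the replicate number of the labels.

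Counts were tested with edgeR 4.0.16 and limma 3.58.1 in R 4.3.3: TMM scaling, a minimum count of 10 in filterByExpr, all 5 groups in 1 quasi-likelihood fit, and Benjamini-Hochberg adjustment over 118954 peaks or 17461 gene sums, with a threshold of 0.05. All adjusted p-values come from this test unless DESeq2 is named. The biological coefficient of variation was 0.163. With 10410233 to 18935287 counts per library, peaks with few counts have wide errors, which the SE shows. Log2 CPM for likeness used a prior count of 2. Tables and figures were made with Python 3.11.15, pandas 2.3.3, numpy 2.4.6 and matplotlib 3.10.9. The procedure was tested on simulated data, where it missed some changes of every size, most of the smaller ones and part of the largest falls. A peak not called is thus not shown to be unchanged.

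Peaks went to the nearest protein-coding gene within 50 kb, and gene-end peaks lay within 1 kb of an annotated end. Named peaks were those over or within 1 kb of a member gene, the highest peak of each member, and, of the called member peaks with a mean CPM of at least the median of 2.72, the 5 per gene with the smallest adjusted p in any comparison with control. Of each list up to 4 genes with the smallest adjusted p were named. Likeness took the top 3 of 8467 genes with at least the median level, predicted gene models left out. The members and lists were chosen with earlier results of these data known. Alternatives were DESeq2 1.42.0, 3 other scalings, no filter, only the groups compared, each library left out, distances of 10 and 100 kb, and all gene types competing for a peak.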

Additional observations from a re-analysis of the deposited data

Results flagged for a closer look

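For 8 results the change against control differed between forskolin times by a direct edgeR test of the difference, with the same 4-hour libraries in every one. From 4 hours to 1 day the +24.9 kb peak of Cebpa was higher by 1.11, its +22.4 kb peak by 0.56 and the +7.6 kb peak of Cebpb by 0.74. From 4 hours to 3 days the Cebpa peaks were higher by 1.55 at +24.9 kb and by 0.90 at +22.4 kb, and these 2 calls held under all 10 alternatives. The Cebpb peaks at +7.6 kb and +5.6 kb were higher by 0.69 and 0.49, and the -2.2 kb peak was lower, at -0.75. Each of these 3, and each of the 3 differences at 1 day, lost its call without S3.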

How the results depend on the processing

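The number of called member peaks was 12 at 4 hours, 9 at 1 day, 6 at 3 days, 4 with rosiglitazone, 6 between the drugs, 3 from 4 hours to 1 day and 5 from 4 hours to 3 days. With genes within 10 kb, which left 19 members, these became 5, 4, 2, 2, 3, 1 and 3; with all gene types competing, which left 11 members, 3, 4, 2, 2, 2, 0 and 1. Within 100 kb (46 members) they were 14 at 1 day, 10 at 3 days and 11 between the drugs. Rosiglitazone had 2 calls with trended offsets and 1 with DESeq2. From 4 hours to 1 day DESeq2 gave 1 and a fit of only the 2 groups 6, and from 4 hours to 3 days DESeq2 gave 2. Leaving out 1 library gave 8 to 14, 5 to 11, 5 to 8, 1 to 3, 4 to 9, 0 to 1 and 2 to 4 in the same order. From 1 day to 3 days it was 0 under every alternative. The distance and gene-type settings change only which peaks are members, so the shares over all peaks given above apply to them. For the other alternatives the share of all peaks called is not given here. A general change in the number of calls thus cannot be told apart from a change at the members. Of 52 called values of member peaks and genes, 24 kept their call under every alternative run and 0 reversed; of 23 uncalled ones, 5 passed under some alternative, and 30 of their 317 alternative values had another sign. Of 40 called list gene values, 20 kept their call, and 5 reversed with gene-end peaks only: Fabp4 at 4 hours (-0.11), Ppargc1a at 4 hours (-0.30), 1 day (-0.0727) and with rosiglitazone (-0.12), and Cxcl1 at 1 day (-0.0260). Except where fewer or more peaks or libraries entered, the cause was not tested. The scaling moved directions over all features: at 1 day 56.8% of called peaks were higher with TMM and 75.9% with library size alone (median change 0.04 and 0.19), and 21.8% of called gene sums with TMM but 56.7% with trended offsets. The alternatives for list genes and for peaks outside the naming rule were chosen after seeing the data. No paired analysis was possible because the column names carry running numbers S1 to S10 and not the labels' replicate numbers.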
